A study of Mus musculus with 64 samples.

Results

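The genes of antigen presentation described here are 46 protein-coding mouse genes among the 52636 genes of the count table. They comprise every protein-coding gene whose symbol starts with H2-, the prefix of the mouse major histocompatibility complex (MHC), together with *B2m*, *Tap1*, *Tap2*, *Tapbp*, *Psmb8*, *Psmb9*, *Psmb10*, *Psme1*, *Psme2*, *Nlrc5*, *Cd74* and *Ciita*. They were taken by symbol and not by measured value. By role, 24 encode class I heavy chains, 10 serve the class I light chain, its peptide supply or its transcription, 9 encode class II chains, and 2 (*Cd74* and *Ciita*) are the class II invariant chain and activator. The remaining gene, *H2-Ke6*, shares the prefix but encodes an oxidoreductase (also known as *Hsd17b8*) and was counted apart. The 39 members on chromosome 17 lie within 3.57 Mb, at chr17:33915899-37483552 of the GRCm38 build.

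MHC class I molecules sit on the surface of nearly all nucleated cells and show peptides from the cell's own proteins to CD8 T cells. The immunoproteasome subunits *Psmb8*, *Psmb9* and *Psmb10* cut these peptides, and *Psme1* and *Psme2* form the PA28 cap of the proteasome. The *Tap1* and *Tap2* transporter carries the peptides into the endoplasmic reticulum, and *Tapbp* (tapasin) bridges that transporter to the heavy chain. *B2m* is the light chain. Class II molecules, found mainly on macrophages, dendritic cells and B cells, show peptides from engulfed material to CD4 T cells, with the invariant chain *Cd74* guarding the peptide groove and the H2-DM proteins loading it. *Nlrc5* and *Ciita* are the transcriptional activators of class I and class II, respectively, and interferon-gamma is a well-known inducer of both.

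RNA was sequenced from whole brown fat (BAT) and whole epididymal white fat (eWAT) of wild-type (WT) and fat-specific *Nampt* knockout (FANKO) mice at zeitgeber time (ZT) 6, 10, 18 and 22, where ZT counts hours from lights on. Each of the 16 combinations of depot, genotype and time held 4 libraries, 64 in all. FANKO mice carry *Nampt* with a floxed exon and a Cre recombinase driven by the adiponectin promoter, which acts in adipocytes, so the other cells of the depot keep the gene. The WT mice were their Cre-negative littermates. All were chow-fed males 2 to 4 months of age. *Nampt* encodes an enzyme that makes a precursor of NAD.

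The libraries held between 6117343 and 30544847 counts in genes, with a median of 15826651. *Nampt* itself, in CPM, the count scaled to a common library size after TMM normalisation, ranged from 479 to 1454 in WT BAT and from 109 to 186 in FANKO BAT. In eWAT the ranges overlapped, from 112 to 310 CPM in WT and from 101 to 131 CPM in FANKO. The depot labels were borne out by their markers, since 4 brown adipocyte genes including *Ucp1* summed to 4104 to 9685 CPM in WT BAT and to 8.99 to 25.2 CPM in WT eWAT. Skeletal muscle genes were high in a part of the BAT libraries, and the library of WT BAT at ZT18, replicate 4, which reached 398 CPM, also held the lowest WT BAT value of 22 of the 30 tested members that were above 0 in all of them.

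Of the 46 members, 35 passed the filter on low counts, as did 20249 genes in all. The 11 that did not, *H2-M1*, *H2-M5*, *H2-M11*, *H2-M10.1*, *H2-M10.3*, *H2-M10.4*, *H2-M10.5*, *H2-M10.6*, *H2-Q1*, *H2-Q2* and *H2-T3*, are class I heavy chain genes, and none had more than 103 counts summed over the 64 libraries. A further 4 members, *H2-M2*, *H2-M10.2*, *H2-Eb2* and *H2-Oa*, passed only through FANKO BAT and therefore had to differ there. The other 31 passed through other groups too. Counts of members below are descriptions and are set against the share of all tested genes called by the same rule.

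In FANKO BAT the genes of both classes were far higher than in WT BAT. By edgeR's quasi-likelihood test at a false discovery rate (FDR) below 0.01, 33 of the 35 tested members were higher and 2, *H2-Q10* and *H2-Ke6*, were lower. Across all genes 67.0% were called in this comparison, 33.1% higher and 33.9% lower. The median log2 fold change of the members was 2.95, against 9.69e-05 over all tested genes. All 16 FANKO libraries lay above all 16 WT libraries for 30 members, an ordering that held for 12.5% of all genes. Both counts include members that passed the filter only through FANKO BAT and so had to differ there. *H2-M2*, *H2-Eb2* and *H2-Oa* are among the 33 and the 30, and *H2-M10.2* is among the 33. Without the muscle-rich BAT libraries, which leaves out 9 of 16 WT and 5 of 16 FANKO libraries, 31 members were called higher and 2 lower (48.3% of all genes were called). Over the 31 members that passed the filter through other groups too, the median was 2.94.

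**Figure D1:**
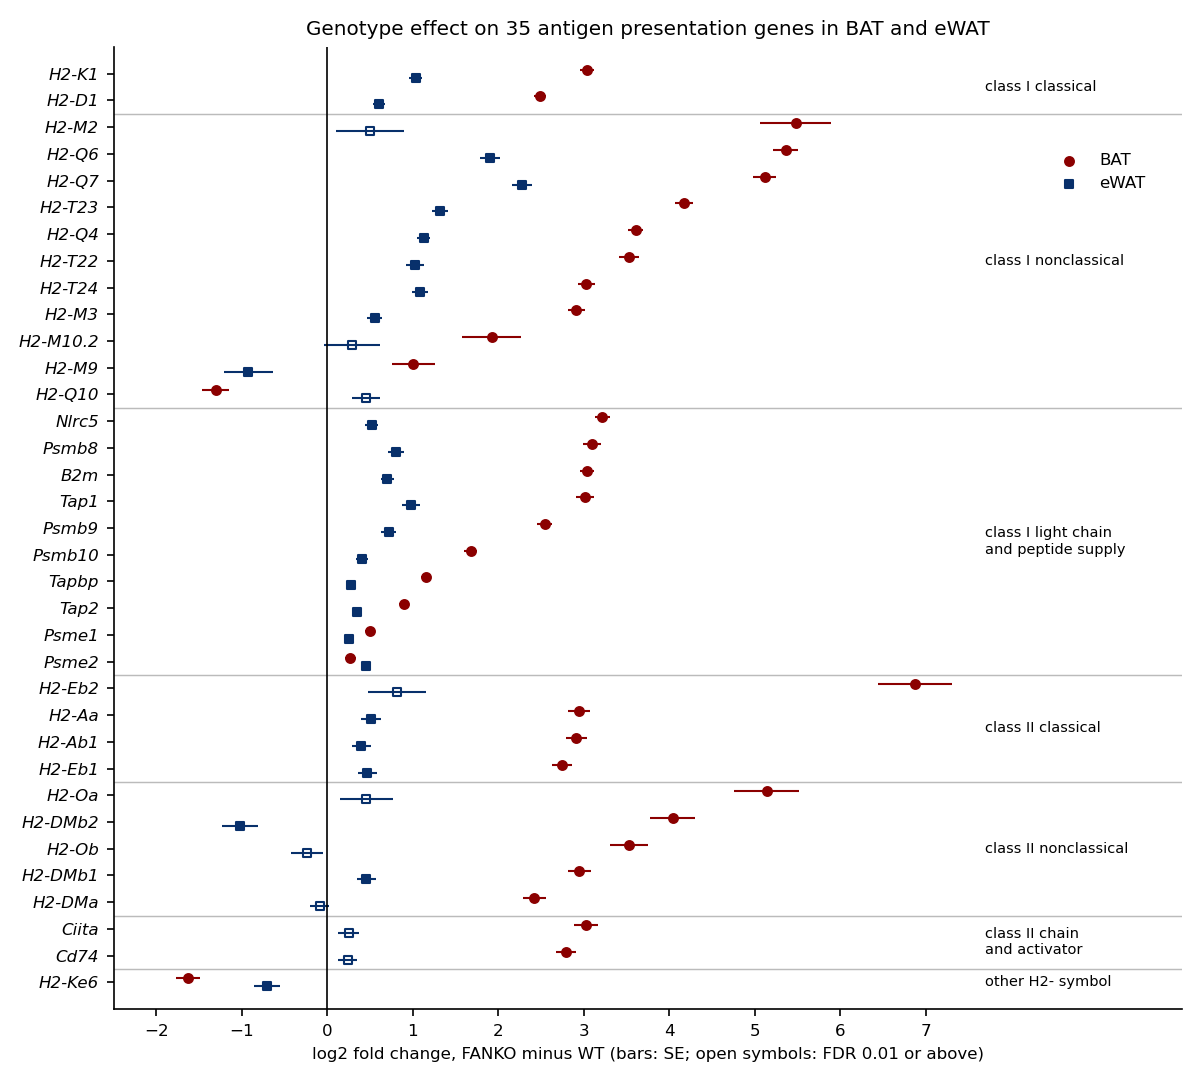
Log2 fold change, FANKO minus WT, of the 35 tested members in BAT (red circles) and eWAT (blue squares), grouped by role, with bars for the SE and open symbols for an FDR of 0.01 or above. In BAT 33 members lie to the right of 0, with H2-Q6 at 5.36, and in eWAT the values run from -1.02 to 2.28.

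Among the classical class I heavy chains, which present peptides to T cells, *H2-K1* lay between 180 and 320.0 CPM in WT BAT (median 250) and between 1275 and 2539 CPM in FANKO BAT (median 2039). The fitted level was 8.22-fold higher (log2 fold change 3.04 ± 0.08 SE, n = 16 per genotype, FDR = 6.42e-39). *H2-D1* lay between 180 and 355 CPM in WT BAT (median 269) and between 990 and 1882 CPM in FANKO BAT (median 1546), 5.62-fold higher (2.49 ± 0.07, FDR = 4.99e-37). The genotypes did not overlap for either gene. Their shared light chain *B2m* moved by the same order, from 248 to 382 CPM (median 302) in WT to 1674 to 3135 CPM (median 2532) in FANKO, an 8.23-fold difference (3.04 ± 0.08, FDR = 6.42e-39). Relative to exon length, *B2m* was the most abundant member in FANKO BAT, with a median of 2944 CPM per kb, followed by *H2-K1* at 694 and *H2-D1* at 599 CPM per kb.

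Among the nonclassical class I genes, *H2-Q6*, *H2-Q7* and *H2-T23* differed by more than *H2-K1* and *H2-D1* did in fitted value. *H2-Q6* was 41.1-fold higher in FANKO BAT (log2 fold change 5.36 ± 0.14), with 2.01 to 8.20 CPM in WT (median 5.39) and 149 to 314 CPM in FANKO (median 216). *H2-Q7*, which like *H2-Q6* encodes a Qa-2 antigen, was 34.7-fold higher (5.12 ± 0.14, FDR = 6.42e-39), with 1.40 to 4.78 CPM in WT (median 3.79) and 81.0 to 177 CPM in FANKO (median 116). *H2-T23*, which encodes Qa-1, a ligand of the inhibitory receptors of natural killer cells, was 18-fold higher (4.17 ± 0.11), with 10.03 to 20.8 CPM in WT (median 14.99) and 200.8 to 402 CPM in FANKO (median 274). No library of one genotype reached the range of the other for these 3 genes. *H2-Q4*, *H2-T22*, *H2-T24* and *H2-M3* were higher by 3.61, 3.53, 3.03 and 2.91 on the log2 scale. *H2-M2* gave a fitted log2 fold change of 5.48 ± 0.42, which rests on 6 counts over the 16 WT BAT libraries against 431 counts over the 16 FANKO BAT libraries.

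*H2-Q10* ran the other way. It encodes a class I molecule known for its secretion and its abundance in liver. It lay between 104 and 314 CPM in WT BAT (median 250) and between 49.4 and 138 CPM in FANKO BAT (median 104), with a log2 fold change of -1.30 ± 0.16 (FDR = 6.74e-11). The ranges overlapped through low WT libraries, the lowest of which was the muscle-rich library named above. Per kb of exon, *H2-Q10* stood in WT BAT at a median of 57.4 CPM, behind *B2m* (351), *H2-D1* (104) and *H2-K1* (85.2).

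These heavy chain genes are close copies of each other, which bears on how far single values can be told apart. Of all 38-base runs in the exons of *H2-Q6*, 42.2% also occur on the same strand in exons of another gene, as do 33.2% of those of *H2-Q7*, 24.9% of those of *H2-Q10*, 20.2% of those of *H2-D1* and 16.1% of those of *H2-K1*. For *H2-T22* the share was 44.4%, nearly all of it in *H2-T10*. The length of 38 bases is that of a single mate of a read pair, and how reads matching several genes were counted is not given in the sources used here. *B2m*, *Nlrc5* and *H2-Ab1* shared no run of this kind.

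The light chain, its activator and the genes that supply peptides to class I rose unevenly. All 10 members of this group were higher in FANKO BAT, with a median log2 fold change of 2.11 and a range from 0.27 to 3.22, and the median over the 8 peptide supply genes, without *B2m* and *Nlrc5*, was 1.42. *Nlrc5*, the class I activator, had the largest value of the 10, 3.22 ± 0.09 (9.31-fold, FDR = 2.36e-38), with 12.9 to 22.99 CPM in WT (median 18) and 106 to 219 CPM in FANKO (median 170). The immunoproteasome subunit *Psmb8* was 8.59-fold higher (3.10 ± 0.10, FDR = 1.68e-34), at 7.34 to 19.5 CPM in WT (median 12.7) and 85.1 to 139 CPM in FANKO (median 110). *Psmb9* was 5.82-fold higher (2.54 ± 0.09, FDR = 3.76e-33), at 5.33 to 13.2 CPM in WT (median 10.4) and 43.6 to 75.5 CPM in FANKO (median 56.5). Each of these 3 genes separated the genotypes completely. The transporter subunit *Tap1* was 8.08-fold higher (3.02 ± 0.11, FDR = 5.24e-33), at 8.56 to 28.9 CPM in WT (median 16.7) and 92.6 to 183 CPM in FANKO (median 131), while its partner *Tap2* was higher by 0.90 on the log2 scale. *Psmb10* was higher by 1.68 and *Tapbp* by 1.15. The PA28 subunits had the smallest differences of the 10, 0.50 for *Psme1* and 0.27 ± 0.06 for *Psme2* (FDR = 6.82e-05), and the *Psme2* libraries of the genotypes overlapped. *Tap1* and *Psmb9* overlap each other on opposite strands over a small part of their exons. Of their runs of single-mate length, 3.78% and 4.57%, respectively, also occur on the opposite strand in exons of another gene. Reads from such stretches can be kept apart only if counting used strand, which the sources used here do not give. This share was larger for *Tapbp* (23.2%), *Tap2* (13.2%) and *Psmb8* (12.7%). It was smaller for *B2m*, *Nlrc5*, *Psmb10*, *Psme1* and *Psme2*.

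**Figure D2:**
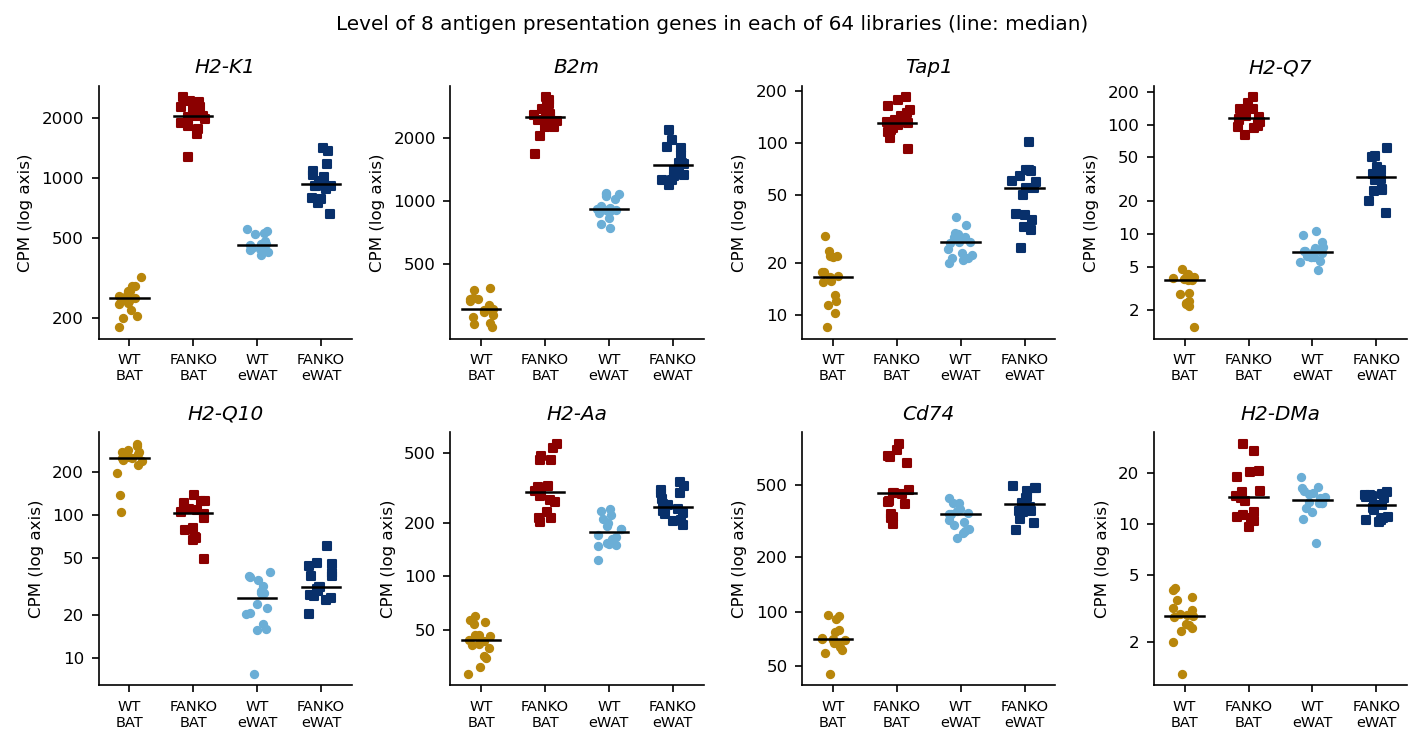
Level of 8 members in each of the 64 libraries, in CPM on log axes, by genotype and depot, with a line at the median of each group of 16. H2-K1, B2m, Tap1, H2-Q7, H2-Aa, Cd74 and H2-DMa are higher in all FANKO BAT libraries than in all WT BAT libraries, whereas H2-Q10 has its highest median, 250 CPM, in WT BAT.

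The class II genes were also higher in FANKO BAT, all 9 chains being called. Without *H2-Eb2* and *H2-Oa*, which passed the filter only through FANKO BAT, the median log2 fold change of the other 7 chains was 2.94 and the range 2.42 to 4.04. *H2-Aa*, the alpha chain of I-A, lay between 28.2 and 59.8 CPM in WT BAT (median 43.4) and between 203 and 563 CPM in FANKO BAT (median 302), 7.68-fold higher (2.94 ± 0.13, FDR = 2.27e-29). Its beta chain *H2-Ab1* was 7.54-fold higher (2.92 ± 0.12, FDR = 6.93e-30), at 10.5 to 31.9 CPM in WT (median 23.5) and 110 to 294 CPM in FANKO (median 158). *H2-Eb1*, a beta chain of I-E, was 6.70-fold higher (2.74 ± 0.12, FDR = 2.14e-29), at 17.6 to 42.7 CPM in WT (median 31.7) and 138 to 356 CPM in FANKO (median 197). The 3 chains thus differed by similar amounts and their genotypes did not overlap. The invariant chain *Cd74* was 6.92-fold higher (2.79 ± 0.12, FDR = 1.19e-29), at 45.7 to 96.5 CPM in WT (median 70.5) and 306 to 842 CPM in FANKO (median 450). *Ciita*, the activator, was 8.13-fold higher (3.02 ± 0.14, FDR = 8.45e-28), at 2.01 to 6.52 CPM in WT (median 3.93) and 18.7 to 65.7 CPM in FANKO (median 29.9).

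Of the chains that load and edit class II peptides, *H2-DMa* was 5.35-fold higher in FANKO BAT (2.42 ± 0.13, FDR = 3.35e-24), at 1.31 to 4.20 CPM in WT (median 2.88) and 9.65 to 29.6 CPM in FANKO (median 14.4). *H2-DMb2* was 16.5-fold higher (4.04 ± 0.27, FDR = 7.16e-21), from 0 to 0.60 CPM in WT (median 0.27) and from 1.98 to 10.4 CPM in FANKO (median 4.34). *H2-DMb1* shares 27.8% of its 38-base runs with *H2-DMb2*, and *H2-DMb2* shares 26.2% of its own with *H2-DMb1*. The H2-DO chains, which restrain H2-DM in B cells, had fitted values of 5.14 (*H2-Oa*) and 3.53 (*H2-Ob*) on the log2 scale. *H2-Eb2* and *H2-Oa* were nearly absent from WT BAT, with 6 and 13 counts over 16 libraries against 1091 and 679 in FANKO BAT, and the fitted log2 fold change of *H2-Eb2*, 6.87, rests on those few counts.

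*H2-Ke6*, the oxidoreductase, fell with a log2 fold change of -1.63 ± 0.14 (FDR = 9.96e-16), from 2.42 to 4.75 CPM in WT BAT (median 3.52) to 0.63 to 1.87 CPM in FANKO BAT (median 1.07). Of its 38-base runs, 73.7% occur in another annotated gene on the same strand.

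Promoter sequence was taken from RefSeq (GRCm38.p6), which held a window from 250 bases before to 50 bases after the start for 39 of the 46 members, 43 windows in all. *Tap2*, *Cd74*, *Ciita*, *Nlrc5*, *H2-T24*, *H2-Q1* and *H2-Ab1* had none. The sequences given here are those of 3 class I genes that rose in FANKO BAT (*H2-K1*, by 1 of its 2 windows, *H2-Q7* and *H2-T23*), the class I gene that fell (*H2-Q10*), the light chain (*B2m*) and a class II chain (*H2-Aa*), each 5′ to 3′ on the strand of the gene. Capitals mark matches, on either strand, to 4 short motifs: the Y box CCAAT bound by NF-Y, the kappa B site (GGG and TTCCC with any 2 bases between), the interferon-stimulated response element (GAAA and GAAA with any 2 bases between) and the interferon-gamma activated site TTCNNNGAA.
H2-K1, chr17:34000298-34000597, minus strand: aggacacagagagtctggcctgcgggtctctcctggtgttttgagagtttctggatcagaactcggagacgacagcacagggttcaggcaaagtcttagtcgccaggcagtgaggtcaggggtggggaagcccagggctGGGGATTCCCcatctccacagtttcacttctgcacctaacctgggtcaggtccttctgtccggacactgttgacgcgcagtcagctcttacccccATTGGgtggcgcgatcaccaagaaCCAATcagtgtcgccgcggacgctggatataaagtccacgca
H2-Q7, chr17:35438905-35439204, plus strand: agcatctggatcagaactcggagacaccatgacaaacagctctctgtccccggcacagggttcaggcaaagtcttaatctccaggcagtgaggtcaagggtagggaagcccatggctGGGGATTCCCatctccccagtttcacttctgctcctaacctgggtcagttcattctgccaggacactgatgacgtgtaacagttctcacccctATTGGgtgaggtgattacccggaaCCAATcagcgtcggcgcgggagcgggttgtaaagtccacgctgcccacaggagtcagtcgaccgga
H2-Q10, chr17:35469839-35470138, plus strand: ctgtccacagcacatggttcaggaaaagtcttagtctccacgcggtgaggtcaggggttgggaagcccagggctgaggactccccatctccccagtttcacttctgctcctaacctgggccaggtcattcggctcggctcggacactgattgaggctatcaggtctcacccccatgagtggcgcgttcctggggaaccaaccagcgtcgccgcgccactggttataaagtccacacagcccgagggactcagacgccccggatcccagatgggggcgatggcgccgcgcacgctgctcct
H2-T23, chr17:36032652-36032951, minus strand: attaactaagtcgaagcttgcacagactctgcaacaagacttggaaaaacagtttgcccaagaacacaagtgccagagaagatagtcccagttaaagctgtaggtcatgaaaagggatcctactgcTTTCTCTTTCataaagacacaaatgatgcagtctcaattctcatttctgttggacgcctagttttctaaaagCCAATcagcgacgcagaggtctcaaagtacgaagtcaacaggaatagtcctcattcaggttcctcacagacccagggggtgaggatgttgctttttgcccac
B2m, chr2:122147437-122147736, plus strand: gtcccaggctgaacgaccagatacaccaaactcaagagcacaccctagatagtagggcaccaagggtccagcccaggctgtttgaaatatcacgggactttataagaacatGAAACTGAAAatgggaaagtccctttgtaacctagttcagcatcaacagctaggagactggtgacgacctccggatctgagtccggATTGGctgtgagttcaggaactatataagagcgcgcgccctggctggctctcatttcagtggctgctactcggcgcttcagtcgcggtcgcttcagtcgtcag
H2-Aa, chr17:34287774-34288073, minus strand: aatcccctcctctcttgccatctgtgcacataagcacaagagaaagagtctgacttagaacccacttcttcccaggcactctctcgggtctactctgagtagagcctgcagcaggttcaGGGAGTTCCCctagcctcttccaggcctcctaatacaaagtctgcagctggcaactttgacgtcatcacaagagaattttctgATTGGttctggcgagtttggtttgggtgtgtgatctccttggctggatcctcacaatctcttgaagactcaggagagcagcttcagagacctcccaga

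The Y box was the commonest of the 4 motifs. Its letters stood in the windows of 19 of 22 class I heavy chain genes, 4 of 8 light chain and peptide supply genes and 8 of 8 class II chain genes, and in 37.4% of all 32851 RefSeq promoter windows of this length. The kappa B letters occurred in *H2-K1*, *H2-D1*, *H2-Q4*, *H2-Q6*, *H2-Q7*, *H2-Aa* and *H2-Oa*, and in 1.75% of all windows. The interferon-stimulated response element occurred in *B2m*, *Psme1*, *H2-T22* and *H2-T23* and in 3.44% of all windows, and the interferon-gamma activated site in *H2-M3*, *H2-M11*, *Psmb8* and *H2-DMb2* and in 8.30% of all windows. The window of *H2-Q10* held none of the 4, and neither did any window of *Psmb10*, *Psme2*, *H2-M5* or *H2-T3*. Only exact matches were counted, so related sequences that differ from these letters were missed. The stretch tttcacttct, which resembles the interferon-stimulated response element on the opposite strand, stands unmarked in the windows of *H2-K1*, *H2-Q7* and *H2-Q10*. The absence of a match in *H2-Q10* therefore does not set it apart from them for this element. These are matches of letters in the windows searched and not measured binding sites.

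In eWAT the higher genes were 9 of the 13 tested class I heavy chains, all 10 light chain and peptide supply genes and 4 of the 9 class II chains. Of the 35 tested members 23 were higher in FANKO eWAT and 3 lower (50.3% of all genes were called, 27.6% higher and 22.8% lower). The median log2 fold change of the members was 0.47, against -0.02 over all tested genes. All FANKO libraries lay above all WT libraries for 5 members, *H2-K1*, *B2m*, *H2-Q6*, *H2-Q7* and *H2-T23*, and for 4.57% of all genes.

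*H2-K1* rose 2.05-fold in eWAT (log2 fold change 1.03 ± 0.08, n = 16 per genotype, FDR = 6.79e-18), from 412 to 558 CPM in WT (median 464) to 659 to 1417 CPM in FANKO (median 932). *B2m* rose 1.63-fold (0.70 ± 0.08, FDR = 6.05e-12), from 741 to 1086 CPM (median 911) to 1193 to 2177 CPM (median 1479). *H2-D1* was 1.53-fold higher (0.61 ± 0.07, FDR = 4.77e-11), at 585 to 787 CPM in WT (median 698) and 782 to 1369 CPM in FANKO (median 1073), and here the lowest FANKO library fell just below the highest WT library. The Qa genes again showed the largest differences. *H2-Q7* was 4.86-fold higher (2.28 ± 0.12, FDR = 3.35e-24), at 4.64 to 10.5 CPM in WT (median 6.78) and 15.5 to 61.6 CPM in FANKO (median 33.5). *H2-Q6* was 3.74-fold higher (1.90 ± 0.12, FDR = 9.38e-21), at 8.99 to 18.7 CPM in WT (median 12.96) and 21.1 to 93.8 CPM in FANKO (median 50.2). *H2-T23* was 2.498-fold higher (1.32 ± 0.09, FDR = 1.98e-18), at 28.7 to 47.8 CPM in WT (median 37.8) and 51.7 to 194 CPM in FANKO (median 105). *H2-Q10* was not called (0.45 ± 0.16, FDR = 0.0134), but was called without the library of WT at ZT6, replicate 4 (0.53), or that of FANKO at ZT6, replicate 3 (0.50), and *H2-M9* was lower (-0.92 ± 0.29, FDR = 0.00445) at medians of 0.58 CPM in WT and 0.39 CPM in FANKO. The *H2-M9* call was lost when the WT eWAT library of ZT6, replicate 4, was left out (-0.68) and when replicate 1, 3 or 4 of every group was.

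All 10 light chain and peptide supply genes were higher in FANKO eWAT, with a median log2 fold change of 0.48, or 0.43 over the 8 peptide supply genes. *Tap1* was 1.97-fold higher (0.98 ± 0.10, FDR = 2.06e-12), at 20.2 to 37.2 CPM in WT (median 26.5) and 24.6 to 101 CPM in FANKO (median 54.9). *Psmb8* was 1.75-fold higher (0.81 ± 0.10, FDR = 1.52e-10), *Psmb9* 1.65-fold (0.72 ± 0.09, FDR = 2.16e-10) and *Nlrc5* 1.43-fold (0.52 ± 0.08, FDR = 1.59e-07). For all 4 genes the lowest FANKO libraries lay inside the WT range.

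Class II was mixed in eWAT. Of the 9 chains 4 were higher, *H2-Aa*, *H2-Ab1*, *H2-Eb1* and *H2-DMb1*, and 1, *H2-DMb2*, was lower. *H2-Aa* was 1.42-fold higher (0.51 ± 0.12, FDR = 0.000162), at 124 to 240 CPM in WT (median 178) and 196 to 344 CPM in FANKO (median 248). *H2-Ab1* was 1.32-fold higher (0.40 ± 0.11, FDR = 0.00176) and *H2-Eb1* 1.38-fold higher (0.47 ± 0.11, FDR = 0.000203). These 3 calls were lost when replicate 3 of every group was left out, with values of 0.32, 0.24 and 0.30, and when libraries were scaled by their size alone. *H2-DMb2* was lower (-1.02 ± 0.21, FDR = 2.56e-05), at 1.04 to 4.86 CPM in WT (median 2.81) and 0.71 to 1.83 CPM in FANKO (median 1.31). *H2-DMa*, its partner chain, had medians of 13.9 CPM in WT and 13 CPM in FANKO and was not called (-0.09 ± 0.11, FDR = 0.505). *Cd74* (0.24 ± 0.11, FDR = 0.0567) and *Ciita* (0.25 ± 0.12, FDR = 0.0729) did not pass the threshold, although both had an unadjusted p below 0.05. *H2-Ke6* was lower in this depot as well (-0.71 ± 0.16, FDR = 8.74e-05).

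The difference between the depots was tested directly. For 34 of the 35 members the genotype effect in eWAT differed from that in BAT (64.3% of all genes), with 32 smaller in eWAT, and *Psme2* was not called (0.18 ± 0.09, FDR = 0.0557). The 32 include the 4 members that passed the filter only through FANKO BAT. The difference was -2.01 ± 0.11 for *H2-K1*, -2.34 ± 0.11 for *B2m*, -2.70 ± 0.12 for *Nlrc5*, -2.43 ± 0.17 for *H2-Aa*, -2.55 ± 0.16 for *Cd74* and -2.77 ± 0.19 for *Ciita* on the log2 scale. The 2 exceptions were the genes that fell in FANKO BAT, *H2-Q10* (1.76 ± 0.23) and *H2-Ke6* (0.92 ± 0.21).

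For most members the order of the depots turned over with genotype. In WT mice 27 of 35 members were higher in eWAT than in BAT and 4 were lower (41.1% and 32.7% of all genes). Class II led this difference, its 9 chains being higher by 1.93 to 3.22 on the log2 scale, with *Cd74* higher by 2.21 and *Ciita* by 1.85, against 0.94 for *H2-K1*, 1.38 for *H2-D1* and 1.60 for *B2m*. Of the 4 lower in WT eWAT, *H2-Q10* differed by -3.24 ± 0.17 and *H2-Ke6* by -1.64, and 2 were light chain and peptide supply genes. These 4 kept their order, being lower in FANKO eWAT than in FANKO BAT as well. In FANKO mice no member was called higher in eWAT and 33 were lower (28.1% of all genes), with 59.7% called in either direction, among them *H2-K1* (-1.07 ± 0.08), *B2m* (-0.74 ± 0.08), *Nlrc5* (-1.36 ± 0.08) and *H2-Aa* (-0.39 ± 0.12, FDR = 0.00307). *H2-Ab1* (-0.31 ± 0.11, FDR = 0.0114) and *H2-DMa* (-0.28 ± 0.11, FDR = 0.0283) were not called. The 33 lower in FANKO eWAT include the 4 members that passed the filter only through FANKO BAT. The depot comparisons use the same libraries as the genotype comparisons and are not independent of them.

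Class I was set against class II in each library as the mean log2 CPM of the 13 tested heavy chains minus that of the 9 tested class II chains. The level of class I averaged 3.07 in WT and 5.99 in FANKO in BAT, and 3.57 and 4.43 in eWAT, while that of class II averaged 1.14 and 4.42 in BAT and 3.11 and 3.32 in eWAT. Their difference was 1.93 ± 0.22 (SD, n = 16) in WT BAT, ranging from 1.58 to 2.46, and 1.56 ± 0.50 in FANKO BAT, ranging from 0.72 to 2.14. In eWAT it was 0.46 ± 0.24 in WT, from 0.05 to 0.82, and 1.10 ± 0.15 in FANKO, from 0.75 to 1.26. The genotypes thus overlapped in BAT, where both classes were higher in FANKO, and overlapped little in eWAT, where the class I mean differed by more than the class II mean. With the classical chains alone (*H2-K1* and *H2-D1* against *H2-Aa*, *H2-Ab1* and *H2-Eb1*) the difference was 3.03 ± 0.23 and 2.96 ± 0.43 in WT and FANKO BAT and 2.13 ± 0.23 and 2.48 ± 0.13 in WT and FANKO eWAT. The eWAT genotypes overlapped on that scale, at 1.67 to 2.60 in WT and 2.22 to 2.67 in FANKO, as did those of BAT (2.54 to 3.40 and 2.23 to 3.54). Without the 4 members that passed the filter only through FANKO BAT, the difference was 1.87 ± 0.26 and 1.88 ± 0.51 in WT and FANKO BAT and 0.15 ± 0.26 and 1.03 ± 0.20 in WT and FANKO eWAT, where the highest WT library stood at 0.64 and the lowest FANKO library at 0.57. No test was made on these means over chosen genes. The means are not scaled for length and say nothing of the relative amounts of the classes.

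**Figure D3:**
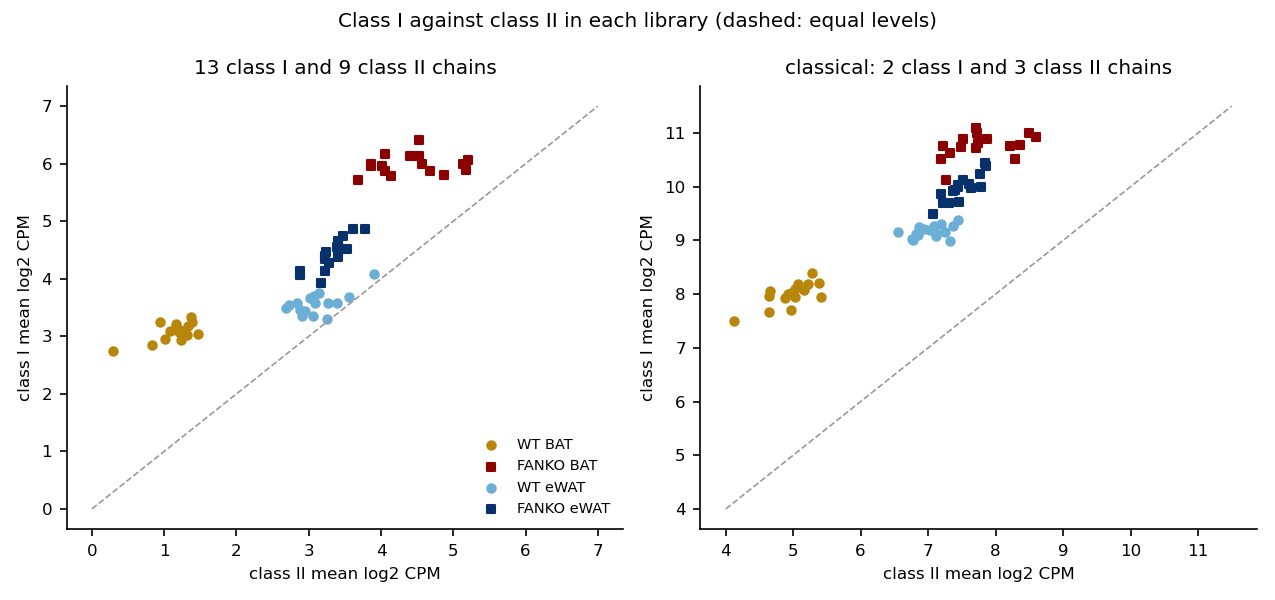
Mean log2 CPM of class I against class II chains in each of the 64 libraries, for the 13 and 9 tested chains (left) and for the classical chains (right), with a dashed line at equal values. FANKO BAT libraries have means of 5.99 (class I) and 4.42 (class II) in the left panel and spread along the class II axis. On the class I axis FANKO and WT eWAT libraries overlap in the left panel (3.92 to 4.87 and 3.29 to 4.08) and are apart in the right panel (9.49 to 10.44 and 8.99 to 9.37).

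The genotype differences were also examined at each time of day for the 22 members described in full, with a two-sided exact permutation test of 4 libraries against 4, 176 comparisons in all. The smallest p that this design allows is 0.0286, adjusted here to 0.0390, and a comparison reaches it where the 4 libraries of one genotype lie above the 4 of the other. Of the 13 genes named by role all 13 separated the genotypes at each of the 4 times in BAT (28.2% of all genes) and 4 did in eWAT (10.5% of all genes). The other 9 of the 22 were taken for the size of their differences and are left out of these counts.

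Daily rhythm was called mainly for class I genes of FANKO eWAT. A cosine of 24 h was called at FDR below 0.01 for 8 of 35 members there (6.77% of all genes), for 1 member, *Tap1*, in WT BAT (13.9% of all genes), a call lost when any replicate was left out, without the muscle-rich libraries and with time as a factor, and for 0 members in WT eWAT (9.38%) and FANKO BAT (2.84%) by edgeR. At an unadjusted p below 0.05 the last 2 counts were 2 (29.6% of all genes) and 6 (21.5%). For each called gene, the value given is the highest minus the lowest of its 4 time-point means of log2 CPM, not the amplitude of the fitted cosine. The FDR beside it is that of the cosine and sine tested jointly. All 8 genes encode class I heavy chains or serve their peptide supply and transcription, namely *Tap1* (1.11 ± 0.24 SE, FDR = 0.000228), *H2-T23* (1.00 ± 0.23, FDR = 0.000221), *H2-T24* (0.93, FDR = 0.000104), *H2-Q4* (0.88, FDR = 0.000158), *H2-T22* (0.85, FDR = 0.00714), *H2-Q7* (0.92, FDR = 0.0084), *Nlrc5* (0.63 ± 0.17, FDR = 0.00865) and *H2-Q6* (0.93, FDR = 0.0097). All 8 had their lowest mean at ZT18, and the highest stood at ZT6 in 6 and at ZT22 in 2. *Tap1* in FANKO eWAT averaged 71.3 ± 20.5 CPM (SD, n = 4) at ZT6, 54.0 ± 15.6 at ZT10, 32.5 ± 6.12 at ZT18 and 55.7 ± 14.3 at ZT22. In WT eWAT the same gene averaged 30.2 ± 4.71, 28.2 ± 1.97, 22.8 ± 1.15 and 24 ± 6.22 CPM. Of the class II chains 0 of 9 were called in FANKO eWAT by edgeR, and also 0 at an unadjusted p below 0.05 (24.5% of all genes). *H2-Aa* averaged 276 ± 48.7 CPM at ZT6 and 227 ± 23.8 CPM at ZT18 (FDR = 0.744).

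The difference of rhythm between genotypes was called for 0 members in either depot by edgeR (1.15% of all genes in eWAT and 2.76% in BAT). At an unadjusted p below 0.05 it held for 12 members in eWAT (15.6% of all genes) and 3 in BAT (19.2%), and the smallest FDR was 0.0199, for *H2-T24* in eWAT. The rhythm of these genes was therefore not shown to differ between the genotypes. The count of 8 fell to 4 without the library of FANKO eWAT at ZT6, replicate 3, which had the highest leukocyte markers of its group, and was 2, 4, 1 and 9 when replicates 1, 2, 3 and 4 of every group were left out in turn.

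**Figure D4:**
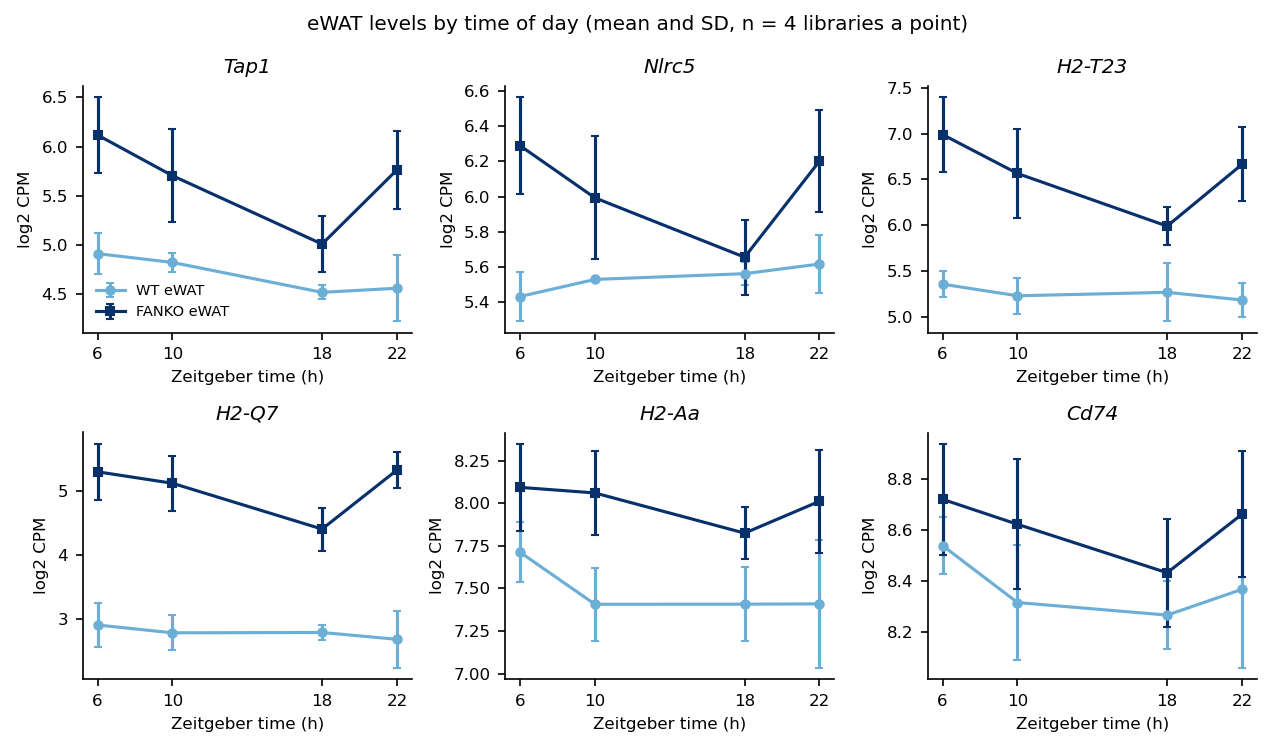
Mean log2 CPM of 6 members in eWAT at ZT6, 10, 18 and 22, with bars for the SD over 4 libraries, in WT (light blue circles) and FANKO (dark blue squares). Tap1, Nlrc5, H2-T23 and H2-Q7 have their lowest FANKO mean at ZT18, as for Tap1 at 32.5 CPM, while the FANKO mean of H2-Aa is 276 CPM at ZT6 and 227 CPM at ZT18.

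Markers of blood cells moved with the members in BAT. The leukocyte genes *Ptprc*, *Laptm5* and *Coro1a* were all higher in FANKO BAT, and their summed level ranged from 20.7 to 37.1 CPM in WT and from 367 to 942 CPM in FANKO. The same held for 6 of 6 macrophage genes (97.2 to 176 CPM in WT, 484 to 1176 CPM in FANKO), 6 of 6 B cell genes (3.15 to 7.96 and 11.0 to 74.0 CPM) and 5 of 5 T cell genes (0.61 to 3.05 and 32.5 to 108 CPM), and 5 of 6 dendritic cell and 3 of 3 natural killer cell genes were higher. The remaining dendritic cell gene, *Zbtb46*, was lower, at medians of 36.6 CPM in WT and 27.6 CPM in FANKO. Of 4 adipocyte genes all were lower, with sums from 3417 to 5046 CPM in WT and from 1847 to 3231 CPM in FANKO. Their part in the result was not tested, and in whole tissue more cells of a type and more RNA per cell cannot be told apart.

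In eWAT the marker lists went different ways. Of the leukocyte genes 2 of 3 were higher in FANKO, with sums from 123 to 196 CPM in WT and from 126 to 403 CPM in FANKO. Of the macrophage genes 2 were higher and 1 lower (582 to 872 and 554 to 904 CPM), and of the dendritic cell genes 4 were higher and 1 lower. Of the T cell genes 4 of 5 were higher (1.69 to 5.99 CPM in WT and 4.92 to 15.7 CPM in FANKO), as were 3 of 3 natural killer cell genes, while 3 of 4 adipocyte genes were lower. Of the B cell genes 5 of 6 were lower in FANKO eWAT (9.53 to 63.5 CPM in WT and 7.16 to 14.7 CPM in FANKO), the depot in which *H2-DMb2* was also lower. Without the WT library of ZT6, replicate 4, which had the highest B cell sum, the log2 fold change of *H2-DMb2* was -0.97 and remained called. The part of these markers in the results in eWAT was not tested.

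Within groups the members varied with *Ptprc*, the pan-leukocyte antigen CD45, to different degrees. Of 8 relations computed over 16 libraries each, *H2-Aa* followed *Ptprc* in FANKO BAT (Pearson's r = 0.85, Spearman's rho = 0.82, adjusted permutation p = 0.000213 for r and 0.000693 for rho) and in FANKO eWAT (r = 0.86, rho = 0.91, adjusted p = 0.00016 and 8e-05). *H2-K1* followed it in FANKO eWAT (r = 0.84, rho = 0.86, adjusted p = 0.00016 and 8e-05), and less closely in FANKO BAT (r = 0.46, rho = 0.33, adjusted p = 0.0859 and 0.213). Without the 2 libraries farthest from the *Ptprc* median, r was 0.83, 0.84, 0.84 and 0.07, respectively. In WT groups r lay between 0.43 and 0.58, and in WT eWAT it fell to 0.07 for *H2-K1* and to 0.00 for *H2-Aa* without such libraries. The libraries of a group span 4 times of day, and *Ptprc* in FANKO eWAT itself averaged 145 CPM at ZT6 and 92.7 CPM at ZT18 (FDR of its rhythm 0.112).

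**Figure D5:**
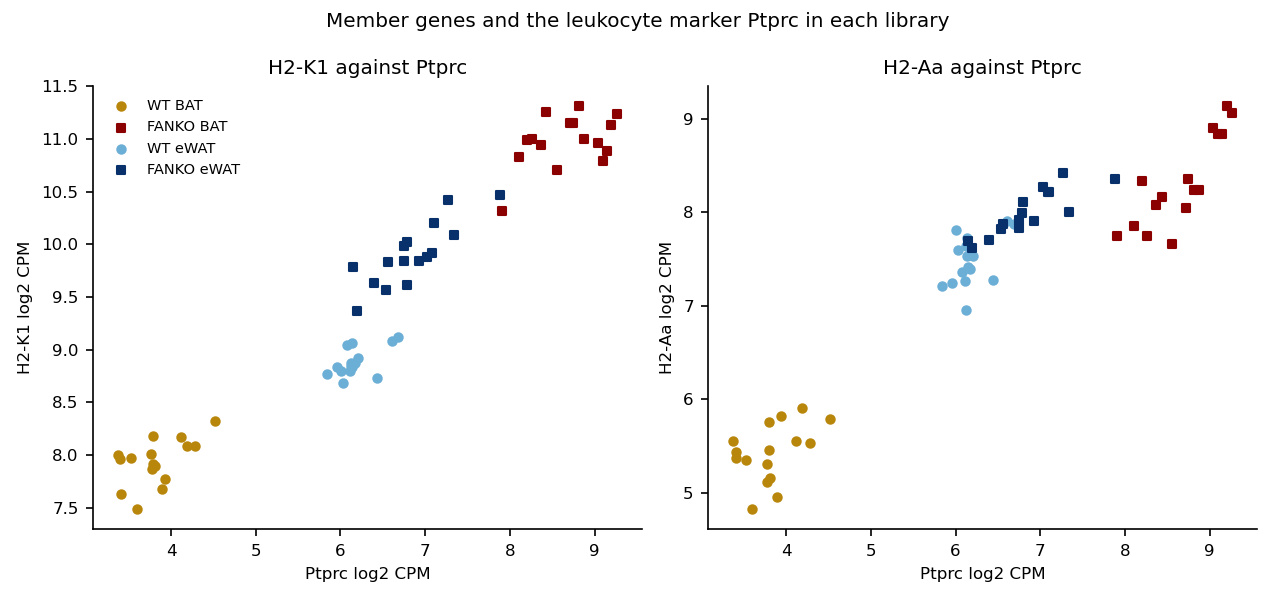
Log2 CPM of H2-K1 (left) and H2-Aa (right) against log2 CPM of the leukocyte marker Ptprc in each of the 64 libraries, by genotype and depot. Within FANKO eWAT both genes follow Ptprc (r = 0.84 and 0.86), and within FANKO BAT H2-Aa does (r = 0.85) more closely than H2-K1 (r = 0.46).

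Other genes of the pathways did not all go with the members. Of 33 tested, 17 were higher, 11 lower and 5 not called in FANKO BAT (33.1% of all genes were higher and 33.9% lower), and 21, 3 and 9 in FANKO eWAT (27.6% and 22.8%). All 4 tested class II proteases were higher in both depots, *Ctss* (cathepsin S, which trims the invariant chain) at a log2 fold change of 6.09 in BAT and 1.197 in eWAT, *Lgmn* at 2.16 and 0.53, *Ctsl* at 0.85 and 0.995 and *Ctsb* at 0.60 and 0.61. The BAT medians of *Ctss* were 6.72 CPM in WT and 459 CPM in FANKO, and the eWAT medians 40.4 and 91.1 CPM. Of 11 transcriptional regulators 6 were higher and 4 lower in BAT, and 5 higher and 2 lower in eWAT. *Irf8* was higher by 4.42 and 0.57 and *Irf1* by 1.48 and 0.22 in BAT and eWAT. *Rfxank* and *Nfyc*, subunits of RFX and NF-Y, the complexes on which class II promoters rely, were lower in BAT (-0.74 and -0.77) and higher in eWAT (0.47 and 0.41), and *Rfxap* was lower in BAT (-0.35). The costimulatory genes *Cd40*, *Cd80* and *Cd86* were higher in BAT by 3.54, 4.05 and 3.12.

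The constitutive proteasome subunits *Psmb5*, *Psmb6* and *Psmb7*, which the immunoproteasome subunits replace, went different ways in the depots. In BAT *Psmb6* (-0.22) and *Psmb7* (-0.61) were lower and *Psmb5* was not called (-0.02), and in eWAT all 3 were higher (0.60, 0.33 and 1.08, respectively). The proteasome activators *Psme3* and *Psme4* were lower in BAT (-0.13 and -0.39) and higher in eWAT (0.44 and 0.14), and the depots differed for all 5 genes by the direct test. Of the class I-like genes, 3 of 4 were lower in FANKO BAT, among them *Fcgrt*, the neonatal Fc receptor, at -1.26, and *Cd1d1*, which presents lipids, at -0.96.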

How the data were processed

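Counts per gene were deposited by the authors as 1 table of raw counts for the 64 libraries. Per the labels and methods, ribosome-depleted stranded libraries were sequenced as 38-base read pairs, aligned with STAR 2.5.3a to GRCm38.p5 with GENCODE annotation 15 and counted with featureCounts 1.5.3. Strand and multimapping options are not given in the sources used here. Gene symbols were taken from a GENCODE annotation of GRCm38, which matched 52489 of 52636 identifiers.

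Genes were filtered with edgeR's filterByExpr over the 16 groups (minimum count 10, minimum total 15), which left 20249. One edgeR 4.0.16 quasi-likelihood model (R 4.3.3, TMM scaling) over all 64 libraries held a mean, a cosine and a sine of 24 h for each depot and genotype. P-values were adjusted over all tested genes by Benjamini and Hochberg, with a threshold of 0.01. Log2 CPM used a prior count of 2. Libraries held 6117343 to 30544847 counts, which limits genes with few counts. An SE gives the precision of a fitted fold change or of a difference of means, and not the spread between libraries. Each library is a separate sample by its label, and the labels do not say from which animal it came. The paper describes tissues harvested from WT and FANKO mice, with n = 4 for RNA sequencing. The p-values set each difference against the spread between these samples and treat the samples as independent. If BAT and eWAT libraries came from the same mice, the depot comparisons would not meet this. Single values at a time point were compared by exact permutation, and correlations by 100000 permutations. The model was tested on simulated data. Shared 38-base runs and motifs were counted in Python 3.11.15.

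Genes described in full were *H2-K1*, *H2-D1*, *B2m*, *Tap1*, *Psmb8*, *Psmb9*, *Nlrc5*, *H2-Aa*, *H2-Ab1*, *H2-Eb1*, *Cd74*, *Ciita* and *H2-DMa*, with the 3 members of largest rise and the 3 of largest fall in each depot among those called. The members, lists and the relations with *Ptprc* were chosen with earlier results of these data known. Alternatives were other scalings and filters, DESeq2 1.42.0, separate fits, time as a factor, another threshold, a replicate block and leaving out libraries.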

Additional observations from a re-analysis of the deposited data

Results flagged for a closer look

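For the 22 members described in full, 352 groups of 4 libraries were searched for a library far from the other 3 by Dixon's criterion, and 30 held one. Chance flags about 1 in 20 groups. In WT eWAT the log2 CPM that stood above the others of its group belonged to *H2-K1* (9.12, ZT22, replicate 4), *B2m* (10.07, ZT22, replicate 4), *Tap1* (5.06, ZT22, replicate 4) and *H2-Eb1* (7.12, ZT18, replicate 1). In WT eWAT the log2 CPM that stood below the others of its group belonged to *H2-D1* (9.19, ZT6, replicate 2), *Nlrc5* (5.46, ZT18, replicate 4) and *H2-DMb2* (0.29, ZT10, replicate 4). In FANKO BAT the log2 CPM that stood above the others of its group belonged to *H2-DMa* (4.35, ZT18, replicate 4). In FANKO BAT the log2 CPM that stood below the others of its group belonged to *H2-D1* (9.95, ZT18, replicate 3), *H2-D1* (10.53, ZT6, replicate 3), *Nlrc5* (7.29, ZT22, replicate 1), *H2-M2* (0.018, ZT22, replicate 1) and *H2-DMb2* (1.07, ZT18, replicate 3). In WT BAT the log2 CPM that stood above the others of its group belonged to *H2-M2* (-2.46, ZT22, replicate 4), *H2-M2* (-1.84, ZT6, replicate 3), *H2-Eb2* (-2.28, ZT10, replicate 3), *H2-Eb2* (-2.46, ZT22, replicate 4) and *H2-Eb2* (-2.25, ZT6, replicate 4). In WT BAT the log2 CPM that stood below the others of its group belonged to *H2-D1* (7.96, ZT10, replicate 2), *H2-Ke6* (1.59, ZT10, replicate 3), *H2-Q10* (6.70, ZT18, replicate 4), *H2-Q6* (1.78, ZT6, replicate 4) and *H2-Q7* (0.60, ZT18, replicate 4). In FANKO eWAT the log2 CPM that stood above the others of its group belonged to *H2-Q10* (5.92, ZT18, replicate 2), *H2-DMb2* (0.77, ZT22, replicate 2), *H2-T23* (7.60, ZT6, replicate 3) and *H2-Q7* (5.95, ZT6, replicate 3). In FANKO eWAT the log2 CPM that stood below the others of its group belonged to *Nlrc5* (5.48, ZT10, replicate 1), *H2-M2* (-3.03, ZT6, replicate 4) and *H2-M9* (-1.47, ZT10, replicate 1). The library of WT BAT at ZT18, replicate 4, was the one richest in skeletal muscle genes, and that of FANKO eWAT at ZT6, replicate 3, the one with the highest leukocyte markers of its group. The values of *H2-M2* and *H2-Eb2* in WT BAT are those of libraries with a few counts where the others had none.

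The genotype effect also differed between eWAT and BAT for all 22 of these genes by edgeR's test of the difference at FDR below 0.01. The log2 effect in eWAT minus that in BAT was as follows for each gene: *H2-K1* (-2.01), *H2-D1* (-1.88), *B2m* (-2.34), *Tap1* (-2.04), *Psmb8* (-2.30), *Psmb9* (-1.82), *Nlrc5* (-2.70), *H2-Aa* (-2.43), *H2-Ab1* (-2.52), *H2-Eb1* (-2.28), *Cd74* (-2.55), *Ciita* (-2.77), *H2-DMa* (-2.51), *H2-Ke6* (0.92), *H2-Q10* (1.76), *H2-Q6* (-3.46), *H2-M2* (-4.98), *H2-Eb2* (-6.06), *H2-DMb2* (-5.06), *H2-M9* (-1.93), *H2-T23* (-2.85) and *H2-Q7* (-2.84).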

How the results depend on the processing

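Single-gene alternatives were run for the 22 genes described in full, and no value among them that was called in either setting changed sign. The uncalled value of *Cd74* in eWAT, 0.24, was -0.0075 with scaling by library size alone. Of the single-gene values 642 kept their side of the threshold, 11 lost their call and 6 gained one. Of the counts and class levels 178 stayed within the spread or within 1.5 times the value reported, and 25 moved, all concerning rhythm or the chains that enter the class levels. The member count for rhythm in FANKO eWAT, 8, was 4 with scaling by library size alone, 5 without the filter on low counts, 5 in a separate fit, 4 without FANKO eWAT ZT6 replicate 3 and 5 without muscle rich BAT libraries, with a range from 1 to 9 when replicates were left out. For rhythm in WT BAT the count of 1 became 2 at FDR below 0.05 and 0 with time as a factor, without muscle rich libraries and whenever a replicate was left out (0 to 0). For rhythm in FANKO BAT it was 3 at FDR below 0.05 and 1 in a separate fit. The difference of rhythm gave 1 member in each depot at FDR below 0.05, and 0 to 1 in eWAT when replicates were left out. The class I minus class II level with classical chains alone was 3.03, 2.96, 2.13 and 2.48 in WT BAT, FANKO BAT, WT eWAT and FANKO eWAT, and without members passing only through FANKO BAT it was 0.15 in WT eWAT. The cause of these changes was not tested.

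Scaling by library size alone shifted the median of all genes by 0.58 in BAT and by -0.27 in eWAT, and split the calls 12785 higher to 2274 lower in BAT and 2389 to 8592 in eWAT, against 6709 to 6861 and 5585 to 4610 with TMM. Under it *H2-Aa*, *H2-Ab1* and *H2-Eb1* lost their calls in eWAT (0.26, 0.15 and 0.22). Without WT eWAT ZT6 replicate 4, an alternative chosen after seeing the data as were those without FANKO eWAT ZT6 replicate 3, without muscle rich libraries and without members passing only through FANKO BAT, *H2-Eb2* (1.27) was called in eWAT.

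Whether replicate numbers pair the libraries is not given by the labels. The correlations below cannot settle it, since libraries with different numbers were not compared. Same-numbered libraries of BAT and eWAT correlated from -0.133 to 0.306, with 10 of 32 pairs over 0.1, and those of WT and FANKO from -0.131 to 0.225, with 6 of 32. A replicate block gave 35 members in BAT, 26 in eWAT, 34 for the difference between depots, 30 for the depots in WT and 33 in FANKO, and 1, 0, 0 and 8 for rhythm in WT BAT, FANKO BAT, WT eWAT and FANKO eWAT.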

Other observations

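Some pseudogenes with the H2- prefix, which are not among the 46 members, were also higher in FANKO libraries. Others were near 0 in every group, among them *H2-M6-ps*, with 42 counts over the WT BAT libraries and 43 over the FANKO BAT libraries. *H2-Ea-ps*, the entry with the symbol of the I-E alpha chain, had 0 and 4 counts over the WT and FANKO BAT libraries. In WT and FANKO eWAT it had 2 and 0 counts. The values of *H2-Eb1* given above are of the RNA of a beta chain and not of the I-E molecule. *H2-Q5* had medians of 1.00 CPM in WT BAT and 25.2 CPM in FANKO BAT (log2 fold change 4.68) and of 2.13 and 6.88 CPM in eWAT (1.63). *H2-T10* had medians of 0.90 and 22.4 CPM in BAT (4.60) and 2.72 and 6.67 CPM in eWAT (1.28). *H2-K2* was higher by 2.22 in BAT and 0.83 in eWAT, and *H2-T-ps* by 4.74 in BAT, with 0.16 in eWAT, which was not called. *H2-T10* shares 38-base runs with *H2-T22*, and *H2-Q5* with *H2-Q6* and *H2-Q7*, so that reads of the pairs cannot be fully told apart.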
